A study of Mus musculus with 16 samples.

Results

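The CUL4B ubiquitin ligase recognizes its substrates through exchangeable receptors, and the mRNAs of 10 such receptors of the DCAF class (DDB1- and CUL4-associated factors) were followed after deletion of Cul4b in the mouse intestine. The genes were Ddb2, Dcaf5, Dcaf6, Dcaf7, Dcaf8, Dcaf10, Dcaf11, Dcaf13, Dcaf15 and Dcaf17. They were picked by gene symbol, by a rule that uses no measured value but was written with earlier results of these data known, and are 10 of the 52525 genes listed in all 3 count tables. The question was whether the receptor mRNAs change when the scaffold on which the receptors are mounted is lost.

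RNA-seq covered 16 libraries in 3 experiments, each with its own WT libraries. The first compared small intestinal crypts of 4 WT (Cul4b fn/Y, a floxed allele on the single X chromosome of males) and 4 KOIEC samples (pVillin-Cre; Cul4b fn/Y), in which Cre is driven in the intestinal epithelium. The second compared organoids, epithelial cultures grown from crypts, of 2 WT and 2 KOIEC samples. The third compared 2 WT with 2 KOCAG organoid samples (CAG-CreERT2; Cul4b fn/Y), in which a ubiquitously driven Cre was switched on in culture with tamoxifen. The mice were C57BL/6. The methods give an adult age range for most experiments on the mice, without naming these libraries. Whether the WT cultures of the third experiment carried CreERT2 or received tamoxifen was not given in the sources used here. In that experiment the deletion, the recombinase and the drug therefore cannot be told apart. The methods call the libraries of a group biological replicates. Whether the organoid libraries of a group came from separate animals was not given in the sources used here, so their p-values measure the spread between these cultures.

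Cullin-RING ligases are modular. CUL4A or CUL4B forms a scaffold, RBX1 at its end recruits the charged ubiquitin-conjugating enzyme, and the adaptor DDB1 holds at its other end a DCAF, usually a WD40-repeat protein, which binds the substrate. Attachment of NEDD8 to the cullin switches the ligase on, and its removal by the COP9 signalosome, followed by CAND1, lets the receptors be exchanged. CUL4A and CUL4B share DDB1 and most receptors. Several DCAFs also have jobs outside the ligase, in DNA repair, ribosome assembly or kinase scaffolding.

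Cul4b itself was measured first. In the WT crypts Cul4b stood at 31.7, 33.2, 38.3 and 32.3 CPM (TMM-scaled counts, relative to library size), and in the KOIEC crypts at 1.69, 0.99, 0.85 and 2.21 CPM. The organoid WT libraries held 83.2 and 73.2 CPM against 1.69 and 1.76 CPM in KOIEC, and 72.9 and 70.1 CPM against 3.34 and 5.19 CPM in KOCAG. Every KO library lay far below every WT library of its experiment, as its label said. Total counts ran from 7348191 to 16881395 per library, so that a floor of 3 counts lay between 0.178 and 0.408 CPM (counting error only), far below the level of each of the 10 DCAF genes. The libraries differed among themselves in several ways. Summed over 8 Paneth markers, WT crypts held 12065 to 21758 CPM and KOIEC crypts 2413 to 22070 CPM. In the crypts, mitochondrial ribosomal RNA (mt-Rnr1 and mt-Rnr2) split the libraries into a class under 100 CPM (1 WT and 3 KOIEC), a class between 100 and 2000 CPM (1 WT and 1 KOIEC) and a class over 2000 CPM (2 WT), and differences within the first 2 classes are given beside the pooled ones. Among the KOIEC organoids the KO libraries stood apart from each other, with a summed level of 8 stem cell markers of 2228 CPM in the first and 605 CPM in the second, and of 12 enterocyte markers of 8069 and 27636 CPM.

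None of the 10 DCAF genes changed in the crypts, none changed in the KOIEC organoids, and 3 changed in the KOCAG organoids, where Dcaf17 and Dcaf8 fell and Dcaf13 rose (edgeR quasi-likelihood test, adjusted p under 0.05 over all genes tested). All 10 passed the filter on low counts in each experiment. The background of such calls differed widely between the experiments: 6.96% of 13427 genes in the crypts, 0.00717% of 13938 in the KOIEC organoids, which is Cul4b alone, and 31.5% of 13598 in the KOCAG organoids. The 3 of 10 in the KOCAG organoids were thus close to the share of all genes that were called there. At an unadjusted p under 0.05 the counts were 1 of 10 in the crypts (31.9% of all genes), 0 of 10 in the KOIEC organoids (4.66%) and 4 of 10 in the KOCAG organoids (43% of all genes). With an additional 2-fold threshold, Dcaf17 alone was called, in the KOCAG organoids, where 8.6% of all genes were (1.79% in the crypts). The median log2 fold change of the 10 genes was -0.04 in the crypts, 0.18 in the KOIEC organoids and -0.09 in the KOCAG organoids, beside -0.01, -0.01 and 0.0012 over all genes tested.

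**Figure D1:**
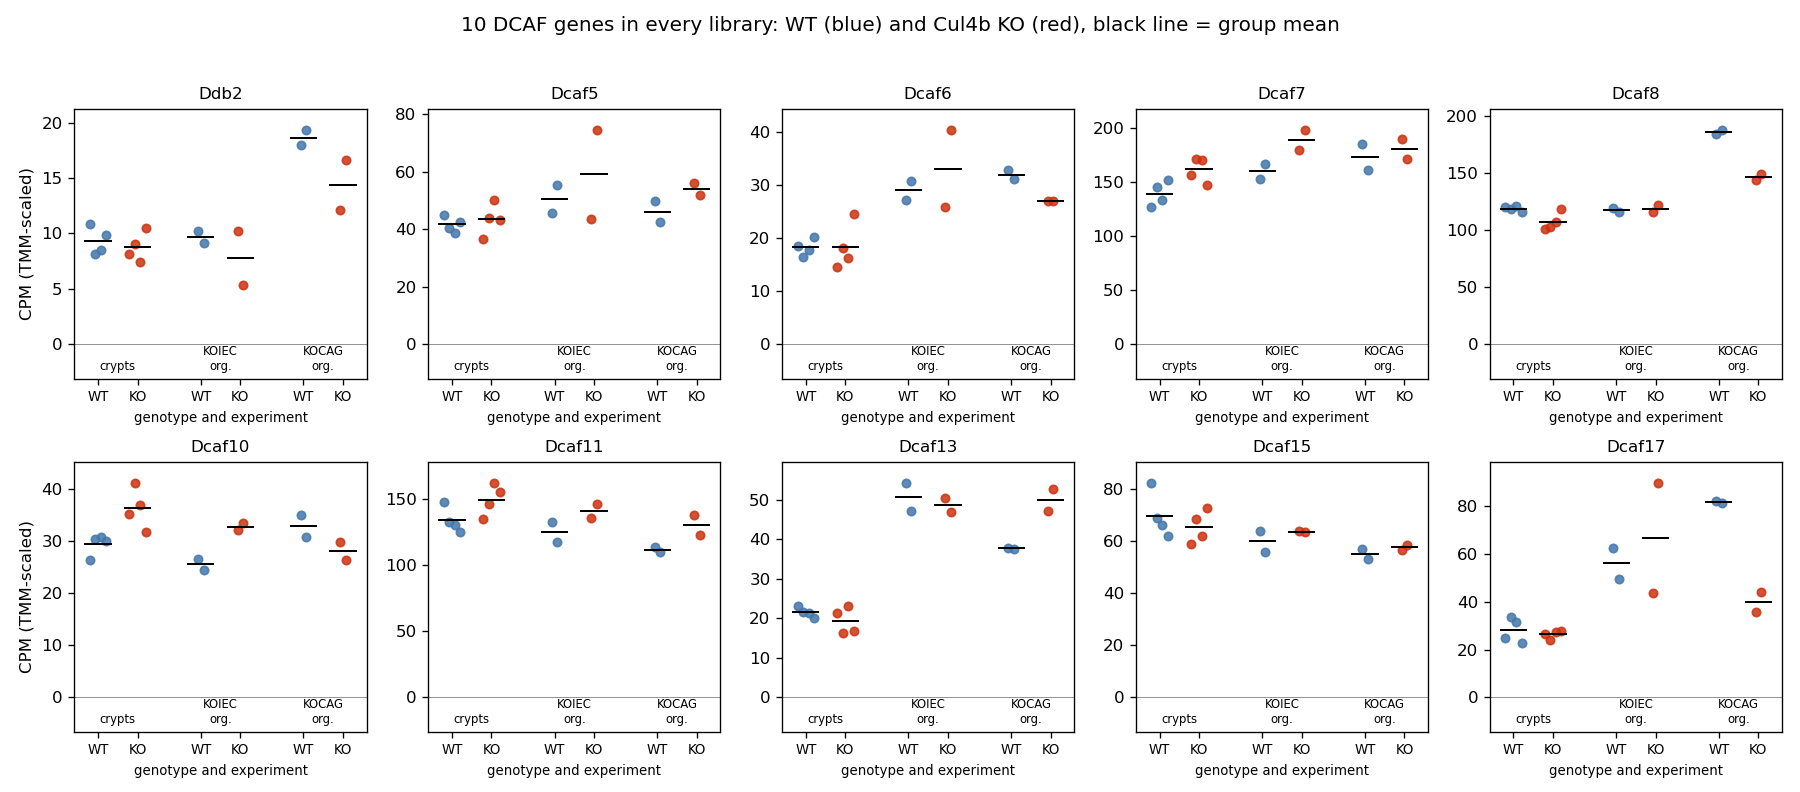
Each panel plots 1 DCAF gene, with TMM-scaled CPM on the y axis and the WT (blue) and KO (red) libraries of the 3 experiments along the x axis; black lines are group means. Dcaf17 in KOCAG organoids shows the widest separation, with WT libraries at 82.3 and 81.4 CPM and KO libraries at 35.6 and 44.3 CPM, while in most other panels the red and blue points lie close together or overlap.

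Dcaf17 carried the largest change. It encodes a nucleolar protein whose loss in humans causes Woodhouse-Sakati syndrome, a disorder of hair, endocrine and nervous systems. In the KOCAG experiment its level was 82.3 and 81.4 CPM in the WT organoids and 35.6 and 44.3 CPM in the KO organoids. Both KO libraries lay below both WT libraries. The log2 fold change was -1.02 (SE 0.11), or 0.492 of the WT level (edgeR, adjusted p = 0.000142), and the value lay between -1.20 and -0.90 with each of the 4 libraries left out. With all 16 libraries in one fit, which share 1 estimate of the spread, the value was -1.04 and the call was lost (edgeR, adjusted p = 0.0591).

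In the other experiments Dcaf17 did not pass the test. The WT crypts held 24.7, 33.8, 31.7 and 23.0 CPM of Dcaf17 and the KOIEC crypts 26.5, 24.1, 27.4 and 27.7 CPM, with all KOIEC values inside the range of the WT values (log2 fold change -0.10, 95% confidence interval -0.41 to 0.21). Within the mitochondrial RNA classes the difference of mean log2 CPM was 0.07 in the low and 0.27 in the middle class. Among the KOIEC organoids, WT libraries stood at 62.5 and 49.7 CPM and KO libraries at 43.7 and 89.6 CPM, 1 below and 1 above both WT values. Its log2 fold change there was 0.25 (interval -0.71 to 1.21), and the sign rested on the KO library used: it was -0.36 without the second KO library (edgeR, adjusted p = 0.574) and 0.67 without the first (adjusted p = 0.0413).

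Whether the effect of the deletion on Dcaf17 differed between the models was tested in a fit of all 16 libraries over 15585 genes. The KOCAG effect was lower than the KOIEC organoid effect by 1.31 on the log2 scale (difference -1.31, interval -2.14 to -0.47, unadjusted p = 0.00468), but after adjustment over all genes the edgeR p was 0.215. Against the crypts the difference was -0.94 (edgeR, adjusted p = 0.222). Such differences passed the adjusted threshold in 0.385% and 0.372% of all genes, and in 0.00642% for the KOIEC organoids against the crypts. With the first KOIEC organoid KO library left out, the difference between the organoid models reached -1.75 and an adjusted p of 0.00615, so its call depended on that library.

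Dcaf17 lies on chromosome 2 (71055328 to 71099142, plus strand, GRCm38), head to head with Mettl8, a methyltransferase gene on the minus strand that acts on mitochondrial tRNAs. Of the exon bases of Dcaf17 in GENCODE M21, 126 are also exon bases of Mettl8, 1.28% of its exon length. Counts of such bases cannot be assigned without strand, and the use of strand in counting was not given in the sources used here. Mettl8 stood at 21.6 and 25.4 CPM in WT and at 13.3 and 14.7 CPM in KOCAG organoids, and it fell as well, by 0.73 on the log2 scale (edgeR, adjusted p = 0.00565). It did not pass the test in the crypts (log2 fold change -0.15, edgeR adjusted p = 0.431) or in the KOIEC organoids (-0.13, adjusted p = 0.903). Both genes of the pair thus fell in the same experiment, in both KO libraries. In that experiment 13.4% of all genes fell, and the groups did not overlap in 69.7% of all genes.

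**Figure D2:**
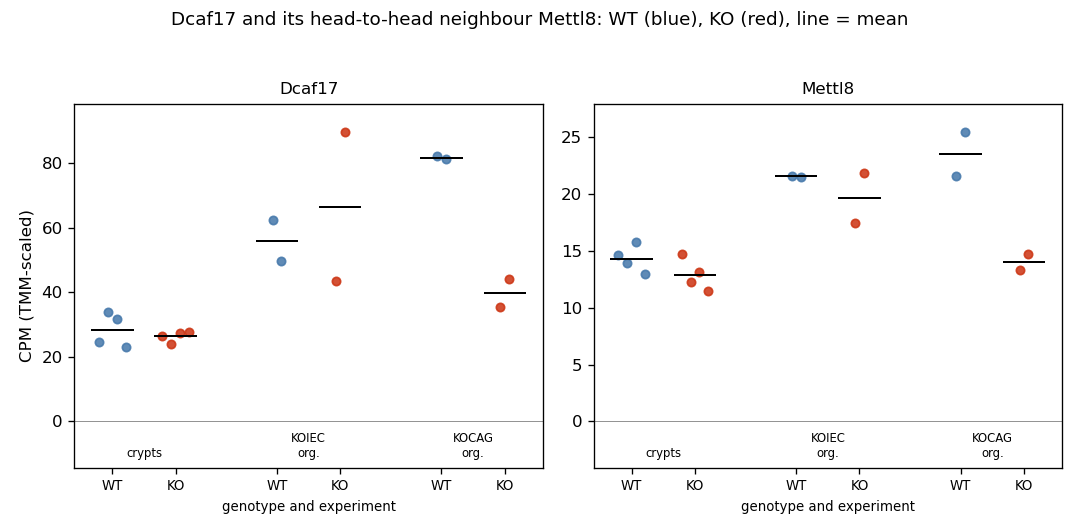
TMM-scaled CPM (y axis) of Dcaf17 and of Mettl8 in each WT (blue) and KO (red) library of the 3 experiments (x axis), with the group mean as a line. In the KOCAG organoids the KO points of both genes lie below the WT points (35.6 and 44.3 against 82.3 and 81.4 CPM for Dcaf17, 13.3 and 14.7 against 21.6 and 25.4 CPM for Mettl8), and in the KOIEC organoids the KO libraries of Dcaf17 lie on either side of the WT libraries.

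The DNA that separates the RefSeq starts of these genes is short and is shown because they fell together. Whether it has a part in their fall was not tested. It spans chr2:71055607-71055743 (RefSeq, GRCm38.p6, plus strand), 137 bases that hold no exon of either gene in GENCODE M21, with 62.8% G or C. Capitals mark, from left to right, GGGCGG (the GC box bound by SP factors), a match to ACTACANNTCCC on the minus strand (a motif known for ZNF143) and a further GGGCGG, and none of these matches overlaps another.
Mettl8 to Dcaf17: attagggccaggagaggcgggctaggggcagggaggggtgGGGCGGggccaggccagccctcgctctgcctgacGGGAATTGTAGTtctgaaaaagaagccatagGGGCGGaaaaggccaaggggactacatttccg
Searched on both strands, ACTACANNTCCC was found in 1.81% and GGGCGG in 35.7% of all 32851 RefSeq windows of 300 bases around starts (250 before, 50 after). The first motif was taken from this sequence after it was read. Of the 8 DCAF genes with such a window, Dcaf17 alone held ACTACANNTCCC and 6 held GGGCGG.

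Dcaf8 also fell in the KOCAG organoids. It encodes a WD40 receptor that is known from a family with an inherited giant axonal neuropathy. WT libraries held 183.7 and 187.2 CPM and KO libraries 143.3 and 149.2 CPM, with no overlap. The log2 fold change was -0.34 (SE 0.08), or 0.789 of WT (edgeR, adjusted p = 0.00908). The size stayed between -0.38 and -0.33 with any library left out, but the call was lost without either WT library (adjusted p = 0.0589 and 0.0926).

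In the crypts Dcaf8 stood at 120.1, 118.1, 121.0 and 115.8 CPM in WT and at 101.3, 102.8, 106.9 and 118.6 CPM in KOIEC. The 3 KOIEC libraries of the low mitochondrial RNA class lay below every WT library and the fourth lay within the WT range (log2 fold change -0.15, edgeR adjusted p = 0.257). By class the difference was -0.21 (low) and 0.03 (middle). In KOIEC organoids the WT values of 119.3 and 115.3 CPM and the KO values of 115.3 and 122.2 CPM overlapped.

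Dcaf8 shares 123 exon bases with Pea15a on the other strand, a gene for a small adaptor of ERK signaling. Pea15a was counted at 8.03 and 8.07 CPM in WT and at 14.4 and 16.5 CPM in KOCAG organoids, so it rose (log2 fold change 0.94, edgeR adjusted p = 0.00383) where Dcaf8 fell. That rise was not called with all 16 libraries in one fit (edgeR, adjusted p = 0.339). The 250 bases before the RefSeq start of Dcaf8 (chr1:172147765-172148014, GRCm38.p6, plus strand) are printed for comparison with those of Dcaf17, the other DCAF gene that fell. Capitals mark GGGCGG read on the minus strand.
Dcaf8: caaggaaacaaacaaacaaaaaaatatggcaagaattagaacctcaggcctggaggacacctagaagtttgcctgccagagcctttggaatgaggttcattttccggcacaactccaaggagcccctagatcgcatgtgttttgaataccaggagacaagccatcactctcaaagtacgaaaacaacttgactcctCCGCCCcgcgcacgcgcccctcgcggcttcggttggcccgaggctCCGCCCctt
ACTACANNTCCC was not matched in the Dcaf8 window.

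Dcaf13 was the DCAF gene that rose. Its product is a component of the small subunit processome, the assembly that processes ribosomal RNA in the nucleolus. It has also been described as a receptor for the histone methyltransferase SUV39H1. The WT organoids of the KOCAG experiment held 37.9 and 37.6 CPM and the KO organoids 47.1 and 52.7 CPM, without overlap. The log2 fold change was 0.41 (SE 0.11), a 1.33-fold rise (edgeR, adjusted p = 0.0151), and 18.1% of all genes rose in that experiment. This call was lost without either WT library (adjusted p = 0.0755 and 0.0853) and with DESeq2 (0.0792). In the crypts Dcaf13 ran from 20.1 to 23.1 CPM in WT and from 16.3 to 23.1 CPM in KOIEC (log2 fold change -0.15, edgeR adjusted p = 0.457), and the difference was -0.20 in the low and -0.25 in the middle class. The difference between the KOCAG and crypt effects was 0.55 (interval 0.12 to 0.97, edgeR adjusted p = 0.225).

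The counts of Dcaf13 are not of the same feature in the 3 experiments. Its exons span 1551 bases in the tables of the crypts and the KOCAG organoids and 10825 bases in the table of the KOIEC organoids. GENCODE M21, which lists 3 transcripts of Dcaf13 with a retained intron, also gives 10825 bases. Such a change of length between the tables was found for 1927 of 52525 shared genes. Dcaf13 read 54.2 and 47.3 CPM in WT and 50.4 and 46.9 CPM in KO of the KOIEC organoids, and these levels were not set against those of the other tables.

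The processome list holds the machinery in which Dcaf13 works. Of its 34 other genes, 3 rose and none fell in the KOCAG organoids (8.82%, against 31.5% of all genes), and none was called in the crypts or the KOIEC organoids. Bysl, which acts late in the maturation of the small subunit, rose by 0.55 on the log2 scale, Noc4l by 0.36 and Utp4 by 0.35 (edgeR, adjusted p = 0.00331, 0.0282 and 0.0156). None of these rises was called with all 16 libraries in one fit (edgeR, adjusted p = 0.323, 0.621 and 0.435). With DESeq2, Bysl was called and Noc4l and Utp4 were not (adjusted p = 0.0137, 0.127 and 0.0878). The median of the list was -0.03 in the KOCAG organoids, -0.25 in the crypts and -0.31 in the KOIEC organoids, beside 0.0012, -0.01 and -0.01 over all genes tested. Suv39h1, listed as its substrate, fell in the crypts from 44.5 ± 4.71 to 31.4 ± 3.38 CPM (SD, n = 4; log2 fold change -0.50, edgeR adjusted p = 0.0450), with -0.45 in the low and -0.45 in the middle class, and read -0.22 (adjusted p = 0.335) in the KOCAG organoids. Its call in the crypts was lost with the RNA class (edgeR, adjusted p = 0.208) or the enterocyte markers (0.694) as covariate and without WT crypt replicate 1, 2 or 3 or KOIEC crypt replicate 2, 3 or 4.

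**Figure D3:**
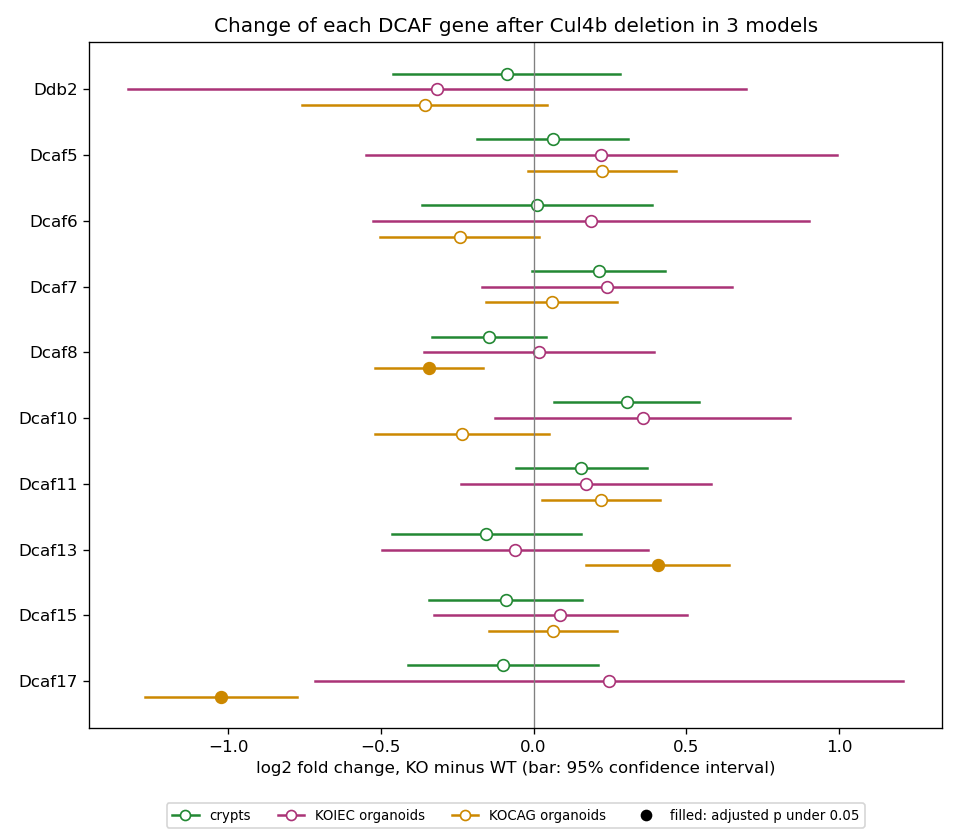
Log2 fold change of KO over WT (x axis) for each DCAF gene (y axis) in crypts (green), KOIEC organoids (purple) and KOCAG organoids (orange), with bars for the 95% confidence interval; filled points have an adjusted p under 0.05. The 3 filled points are Dcaf17 (-1.02), Dcaf8 (-0.34) and Dcaf13 (0.41) in KOCAG organoids, and the widest intervals are those of the KOIEC organoids.

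Dcaf10 came nearest to a call in the crypts. It encodes a WD40 receptor (WDR32) with few known substrates. Its levels were 26.4, 30.4, 30.7 and 30.0 CPM in WT and 35.2, 41.1, 37.0 and 31.8 CPM in KOIEC crypts. Every KOIEC library lay above every WT library, a separation that 17.5% of all genes showed and that no other DCAF gene showed in the crypts. The log2 fold change was 0.31 (SE 0.11), with an unadjusted p of 0.0169 and an edgeR adjusted p of 0.0890. An exact two-sided permutation test gave p = 0.0286, the smallest that 4 against 4 libraries allow. Any gene with such a full separation gets this p, so it adds nothing to the lack of overlap. The difference was 0.51 in the low class of mitochondrial RNA, which has a single WT library, and 0.08 in the middle class.

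In organoids the estimates for Dcaf10 had opposite signs, with intervals that both included 0. KOIEC organoids held 32.1 and 33.5 CPM against 26.7 and 24.5 CPM in WT (log2 fold change 0.36, interval -0.13 to 0.84), and KOCAG organoids held 29.7 and 26.4 CPM against 35.1 and 30.7 CPM in WT (-0.23, interval -0.52 to 0.05). Groups did not overlap in either, as in 38.9% of all genes in the KOIEC organoids and 69.7% in the KOCAG organoids. Neither change passed the edgeR test (adjusted p = 0.856 and 0.188). The KOCAG effect lay below the crypt effect by 0.55 (difference -0.55, unadjusted p = 0.00878, edgeR adjusted p = 0.187) and below the KOIEC organoid effect by 0.61 (difference -0.61, adjusted p = 0.284). Dcaf10 shares 53 exon bases with Exosc3 of the RNA exosome on the other strand, whose level passed the test in none of the experiments (edgeR, adjusted p = 0.273, 0.858 and 0.838 in crypts, KOIEC and KOCAG organoids).

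Ddb2, the damage sensor that binds UV lesions in chromatin and hands them to XPC, was the lowest of the 10 in CPM. In the KOCAG organoids it read 17.9 and 19.3 CPM in WT and 12.1 and 16.6 CPM in KO. The KO libraries lay below the WT libraries but apart from each other (log2 fold change -0.36, interval -0.76 to 0.05, edgeR adjusted p = 0.159), and without the second KO library the value was -0.62 with an adjusted p of 0.0154. The KOIEC organoids read 10.2 and 9.09 CPM in WT and 10.2 and 5.33 CPM in KO, and the log2 fold change of -0.32 turned to 0.08 without the second KO library. In the crypts Ddb2 ran from 8.11 to 10.8 CPM in WT and from 7.42 to 10.5 CPM in KOIEC (log2 fold change -0.09), with -0.40 in the low and 0.08 in the middle class. In GENCODE M21 Ddb2 shares 652 exon bases, 23.8% of its exon length, with Acp2 on the other strand, the largest such share among the 10. Acp2, which encodes a lysosomal phosphatase, passed the test in none of the experiments (edgeR, adjusted p = 0.0716, 0.903 and 0.390).

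The nucleotide excision repair genes around Ddb2 were called in the KOCAG organoids alone, with 2 rising and 2 falling among 22 (18.2%, against 31.5% of all genes). Ercc5, the nuclease that cuts on the 3′ side of a lesion, rose by 0.96 on the log2 scale, from 21.7 ± 2.27 to 42.3 ± 2.70 CPM (SD, n = 2; edgeR, adjusted p = 0.000410). Ercc3, a helicase of TFIIH, rose by 0.54 (edgeR, adjusted p = 0.00458). Uvssa, a factor of transcription-coupled repair, fell by 0.40 and Rpa3, the small subunit of the single-strand binding protein RPA, fell by 0.38 (edgeR, adjusted p = 0.0294 and 0.0239). Neither fall was called with DESeq2 (adjusted p = 0.133 and 0.103). With all 16 libraries in one fit both calls were lost as well (edgeR, adjusted p = 0.321 and 0.342). Ercc5 and Ercc3 stayed called in both runs. Xpc, to which DDB2 passes lesions, read 0.02, -0.05 and -0.24 in crypts, KOIEC and KOCAG organoids, without a call.

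Dcaf11 (WDR23), which restrains the oxidative stress factor NRF2 apart from KEAP1, was measured at 113.8 and 110.0 CPM in WT and at 138.3 and 122.8 CPM in KOCAG organoids. The groups did not overlap, as in 69.7% of all genes and 8 of the 10 DCAF genes there. The log2 fold change was 0.22 (interval 0.03 to 0.41, edgeR adjusted p = 0.0797), and without the second KO library it was 0.30 with an adjusted p of 0.00503. KOIEC organoid KO values of 135.6 and 146.3 CPM lay above WT values of 132.8 and 117.4 CPM (0.17, interval -0.24 to 0.58). The crypts overlapped, from 125.3 to 148.3 CPM in WT and from 134.9 to 162.0 CPM in KOIEC (0.16), with -0.01 in the low and 0.31 in the middle class. Dcaf11 shares 580 exon bases, 7.19% of its exon length, with A730061H03Rik and Gm15932 on the other strand.

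Dcaf7 (WDR68), a scaffold that docks the kinases DYRK1A and HIPK2, had the highest CPM of the receptors in the KOIEC organoids, at 153.0 and 166.8 CPM in WT and 180.0 and 197.8 CPM in KO. These groups did not overlap (log2 fold change 0.24, interval -0.17 to 0.65), as in 3 of the 10 DCAF genes and 38.9% of all genes in that experiment. In the crypts WT ran from 126.4 to 151.5 CPM and KOIEC from 147.5 to 171.6 CPM (0.21, edgeR adjusted p = 0.162), with 0.39 in the low and -0.04 in the middle class. The KOCAG organoids overlapped (0.06, interval -0.15 to 0.27). Of the kinases that bind DCAF7, Hipk2 rose by 1.04 on the log2 scale in the crypts, from 87.3 ± 16.2 to 179.7 ± 48.5 CPM, and Dyrk1a by 0.41, from 75.9 ± 1.57 to 100.8 ± 8.96 CPM (SD, n = 4; edgeR, adjusted p = 0.0401 and 0.0425). The class differences were 1.54 (low) and 0.31 (middle) for Hipk2 and 0.45 and 0.22 for Dyrk1a. Both calls were lost with the RNA class (edgeR, adjusted p = 0.211 each) or the enterocyte markers (0.685 each) as covariate and without WT crypt replicate 1, 2 or 3 or KOIEC crypt replicate 2 or 3. Neither passed it in the KOCAG organoids, at -0.21 and 0.05 (edgeR, adjusted p = 0.124 and 0.736).

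Dcaf5, which takes part in the quality control of SWI/SNF complexes, read 45.8 and 55.4 CPM in WT and 43.6 and 74.3 CPM in KOIEC organoids, so the KO libraries enclosed the WT libraries. The log2 fold change of 0.22 turned to -0.21 without the second KO library. In the KOCAG organoids KO values of 56.0 and 52.0 CPM lay above WT values of 49.8 and 42.5 CPM (0.22, interval -0.02 to 0.47, edgeR adjusted p = 0.145). In the crypts the WT range of 38.6 to 45.0 CPM lay inside the KOIEC range of 36.5 to 50.2 CPM (0.06, with -0.06 in the low and 0.03 in the middle class). Its listed substrate Smarcc1 and the partner Smarcb1, subunits of SWI/SNF, read -0.12 and -0.21 in the crypts and -0.08 and -0.11 in the KOCAG organoids, with no call.

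Dcaf6 (NRIP), a coactivator of nuclear receptors, the glucocorticoid receptor among them, went from 32.9 and 31.1 CPM in WT to 27.1 and 27.0 CPM in KOCAG organoids. The groups did not overlap, and the test was not passed (log2 fold change -0.24, interval -0.50 to 0.02, edgeR adjusted p = 0.143). KOIEC organoids read 25.8 and 40.4 CPM in KO around 27.3 and 30.9 CPM in WT, and crypts 14.6 to 24.6 CPM in KO around 16.5 to 20.2 CPM in WT (0.01, with -0.19 in the low and 0.29 in the middle class). Nr3c1, the glucocorticoid receptor gene, fell in the KOCAG organoids from 188.9 ± 5.31 to 138.4 ± 1.83 CPM (SD, n = 2; log2 fold change -0.45, edgeR adjusted p = 0.00215). With all 16 libraries in one fit that call was lost (edgeR, adjusted p = 0.231).

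Dcaf15, the receptor that aryl sulfonamide drugs turn against the splicing factor RBM39, had pooled fold changes within 0.10 of 0 on the log2 scale in all 3 experiments. KOCAG organoids read 56.4 and 58.7 CPM in KO and 57.1 and 53.1 CPM in WT (log2 fold change 0.06, interval -0.15 to 0.27), and KOIEC organoids 63.9 and 63.3 CPM in KO and 64.0 and 55.7 CPM in WT (0.09, interval -0.33 to 0.50). In the crypts WT ran from 62.0 to 82.1 CPM and KOIEC from 58.8 to 72.5 CPM (-0.09). The within-class differences pointed apart, -0.38 in the low and 0.23 in the middle class. Rbm39 fell in the KOCAG organoids by 0.32 on the log2 scale (edgeR, adjusted p = 0.0195) and read 0.02 in the crypts. Its call was lost with all 16 libraries in one fit (edgeR, adjusted p = 0.136). Of 10 tested partners or substrates of the receptors, 2 fell and none rose in the KOCAG organoids (20%, against 31.5% of all genes). In the crypts 2 rose and 1 fell (30%, against 6.96% of all genes), and none was called in the KOIEC organoids.

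The intervals show what these experiments could resolve. In the crypts the 95% intervals of all 10 genes lay between -0.46 and 0.54 on the log2 scale, with a median width to each side of 0.25. The KOCAG organoids had widths between 0.18 and 0.40 to each side. In the KOIEC organoids the median was 0.46 and the widest, that of Ddb2, was 1.01. With 2 against 2 libraries an exact permutation test cannot go below p = 0.333, so no single gene could be tested that way in the organoids.

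Between genes, levels can be compared only per length. In the WT crypts Dcaf15 was highest at 29.4 ± 3.66 RPKM (reads per kilobase of exon and per library total; SD, n = 4), followed by Dcaf7 at 22.7 ± 1.85, Dcaf11 at 16.6 ± 1.23, Dcaf13 at 13.9 ± 0.79, Dcaf8 at 9.14 ± 0.18 and Dcaf5 at 7.01 ± 0.47 RPKM. Ranges of these neighbors did not overlap. The lowest 4, Dcaf10 at 4.02 ± 0.27, Ddb2 at 3.41 ± 0.46, Dcaf17 at 2.89 ± 0.54 and Dcaf6 at 2.85 ± 0.24 RPKM, overlapped each with the next, and the ratio from top to bottom was 10.3. In the WT libraries of the KOCAG experiment Dcaf7 led at 28.2 ± 2.78 RPKM (SD, n = 2) and Dcaf10 was lowest at 4.50 ± 0.42, with Dcaf17 between them at 8.34 ± 0.07. The WT libraries of the KOIEC organoid experiment ran from Dcaf7 at 26.1 ± 1.60 to Dcaf10 at 3.50 ± 0.21 RPKM. The experiments were prepared separately, so these levels per length were ordered within each and not compared between them.

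**Figure D4:**
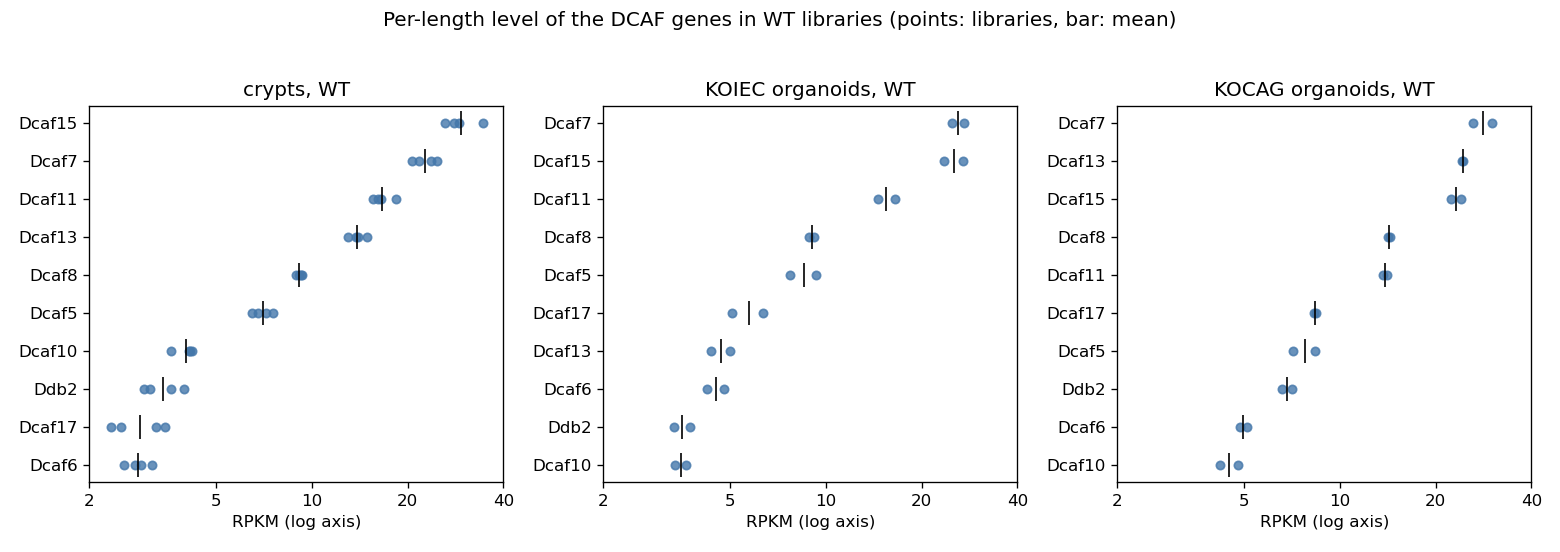
Per-length level in RPKM (x axis, log scale) of each DCAF gene (y axis, ordered by mean) in the WT libraries of each experiment; points are libraries and bars are means. Dcaf15 and Dcaf7 are among the highest 3 genes in every panel (29.4 and 22.7 RPKM in crypts), and Dcaf6, Dcaf10 and Ddb2 are among the lowest 4; Dcaf13 in the KOIEC organoid panel is divided by a length of 10825 bases in place of 1551.

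The rest of the ligase was measured for context. Ddb1, the adaptor that holds every DCAF, read 476.9 ± 32.0 CPM in WT and 491.4 ± 50.1 CPM in KOIEC crypts (SD, n = 4), and 613.2 ± 6.81 and 608.1 ± 4.82 CPM in WT and KOCAG organoids (SD, n = 2). Its log2 fold change was 0.04 in crypts, 0.01 in KOIEC organoids and -0.01 in KOCAG organoids. Cul4a, the paralog of the deleted scaffold, gave 0.01, 0.04 and -0.08, and Rbx1, the RING subunit, -0.22, -0.11 and -0.03 in the same order. None of the 3 genes passed the edgeR test in any experiment (lowest adjusted p = 0.205, Rbx1 in crypts). Of 29 genes of the CRL4 core and of cullin neddylation, with Cul4b left aside, 4 rose in the KOCAG organoids and none was called elsewhere. Those 4 are 13.8% of the list, below the 18.1% of all genes that rose there and the 31.5% called in either direction. They were Dcun1d3, a neddylation cofactor (log2 fold change 0.78), Ube2f, a NEDD8-conjugating enzyme (0.66), Dda1, a DDB1-associated subunit (0.46), and Nedd8 itself (0.34), with edgeR adjusted p-values of 0.00426, 0.00315, 0.00481 and 0.0134. With all 16 libraries in one fit Ube2f alone stayed called (edgeR, adjusted p = 0.110, 0.0429, 0.0551 and 0.214 in the same order). With DESeq2, Nedd8 alone was not called (adjusted p = 0.0543).

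Among 25 other receptors or candidate receptors of CRL4, 23 were tested, Dcaf12l2 was at 0 counts in all 16 libraries and Dcaf12l1 was too low. In the KOCAG organoids 6 of the 23 fell and none rose, 26.1% of the list beside 13.4% of all genes that fell and 31.5% that were called in either direction there. Dtl, the CDT2 receptor that targets replication licensing factors, fell by 0.52 on the log2 scale, from 74.5 ± 6.93 to 51.4 ± 10.4 CPM (SD, n = 2; edgeR, adjusted p = 0.0134). Det1 fell by 0.49, Rbbp7, a histone chaperone shared with chromatin complexes, by 0.42 and Wdr76 by 0.39 (edgeR, adjusted p = 0.0338, 0.0122 and 0.0412). Brwd1, which went the other way in the crypts, fell here by 0.31 (edgeR, adjusted p = 0.0230). That fall was not called with DESeq2 (adjusted p = 0.0864) or with all 16 libraries in one fit (edgeR, adjusted p = 0.278). Nor were the falls of Dtl, Det1, Rbbp7 and Wdr76 called in that fit (edgeR, adjusted p = 0.601, 0.129, 0.300 and 0.575). With DESeq2, Dtl and Rbbp7 were called and Det1 and Wdr76 were not (adjusted p = 0.0113, 0.00243, 0.131 and 0.165). In the crypts Brwd1, a bromodomain protein, rose by 0.47 and Wdr77, the partner of the methyltransferase PRMT5, fell by 0.58 (edgeR, adjusted p = 0.0455 and 0.0473), 8.70% of the 23 beside 6.96% of all genes. The class differences were 0.68 (low) and 0.12 (middle) for Brwd1 and -0.56 and -0.30 for Wdr77. Both calls were lost with the RNA class (edgeR, adjusted p = 0.219 and 0.245) or the enterocyte markers (0.685 and 0.743) as covariate and without WT crypt replicate 1, 2 or 3 or KOIEC crypt replicate 2 or 3, and that of Wdr77 also without KOIEC crypt replicate 4. None was called in the KOIEC organoids.

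Marker genes of epithelial cell types were called in the KOCAG organoids and a few in the crypts, and in such bulk samples fewer cells of a type and less RNA per cell cannot be told apart. In the KOCAG organoids 10 of 12 enterocyte, 7 of 8 Paneth, 7 of 8 goblet and 8 of 8 enteroendocrine markers rose. There 3 of 8 stem cell markers fell and 2 of 5 tested tuft markers rose, beside 31.5% of all genes called. Of the immune and of the mesenchymal or muscle markers only 1 each was tested there, and it rose. The summed enterocyte markers ran from 7815 to 8272 CPM in WT and from 14454 to 17727 CPM in KO there, and in the crypts from 3115 to 12146 CPM in WT and from 10532 to 23926 CPM in KO. In the crypts 1 of 12 enterocyte markers rose (8.33%) and 2 of 8 stem cell markers fell (25%), beside 6.96% of all genes called, and no Paneth, goblet, enteroendocrine or tuft marker was called. No marker of any cell type was called in the KOIEC organoids. Immune markers were present in the crypts, with a sum from 224 to 1016 CPM over both genotypes, and nearly absent from the organoids, with at most 6.97 CPM and with Cd8a, Gzma and Gzmb at 0 counts in every organoid library. The part of cell composition in the DCAF values of the organoids was not tested. In the crypts, with the enterocyte markers as a covariate, Dcaf10 read 0.36 (edgeR, adjusted p = 0.685) and none of the 10 was called. Only 1 gene of all those tested was called with that covariate. The lack of a call with it, here or for the other genes named above, thus says little about a single gene.

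The genes whose levels followed each receptor most closely were sought among 12477 genes tested in all experiments, over the deviations of the 16 libraries from their group means. These correlations share libraries and depth and are given as descriptions. In the organoid groups of 2 libraries the deviations mirror each other, so they are not independent values. The genes named were picked as the highest of all compared, which by itself gives high correlations. Dcaf17 was followed by Serpinf2 (Pearson's r = 0.93), Pgk1 (0.86) and Ncald (0.85), and Dcaf8 by Vav1 (0.95), Gm37090 (0.93) and Gm5406 (0.92). Dcaf13, with Ldoc1l (0.86), Top1mt and Cry1 (0.85 each), had the weakest of the leading correlations, and Dcaf5, with Pex5 (0.97), E030042O20Rik (0.97) and Dapp1 (0.96), the strongest. For Dcaf6 the genes were Stx8 (0.97), 1810058I24Rik and Usp35 (0.94 each), and for Dcaf10 Cpt1a (0.92), Gm10524 (0.91) and Csnk1g1 (0.90). Ddb2 was followed by Nek6 (0.93), Bbs12 and Snhg15 (0.92 each), and Dcaf7 by Slmap (0.89), Zfyve16 and Zfp937 (0.87 each). Dcaf11 was followed by Pnp2 (0.92), Nkiras2 and Misp (0.91 each), and Dcaf15 by Tfpt (0.94), Fibp and Stk19 (0.88 each).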

How the data were processed

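The authors deposited raw read counts per gene for each of the 3 experiments, with gene lengths and no normalization; the submitters' processing notes name HISAT2 2.0.5 and featureCounts 1.5.0-p3, and strand use, genome build and annotation are not given in the sources used here. Positions of all 10 DCAF genes matched GENCODE M21 on GRCm38. KO and WT were compared within each experiment with edgeR 4.0.16 (R 4.3.3; filterByExpr, TMM, quasi-likelihood F test), and p-values were adjusted by Benjamini-Hochberg over all genes tested (called: under 0.05). The methods' 2-fold threshold was an alternative. Differences between models were tested in 1 fit of all 16 libraries. CPM and RPKM were TMM-scaled, the latter with the deposited lengths. Samples were grouped by their labels; replicates of WT and KO share numbers, but the libraries were not treated as pairs. Scripts were tested on simulated data. Alternatives were DESeq2 1.42.0, other scalings and filters, a replicate block, covariates, all libraries in one fit, and each library left out.

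The members and gene lists were chosen with earlier results of these data known. Named genes were the 10 members, Cul4b, Ddb1, Cul4a and Rbx1, of each pathway list the called genes of largest change (at most 4 per direction and experiment), the overlapping neighbors, and the 3 genes most correlated with each member. The neighbors, the promoter stretches and the motif ACTACANNTCCC were chosen after the data and sequences were seen. Of the listed partners, Rbm23 was not analysed here. Promoter sequences are from RefSeq (GRCm38.p6), with entries for 8 of the 10 genes, all but Ddb2 and Dcaf13.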

Additional observations from a re-analysis of the deposited data

Results flagged for a closer look

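Among 22 groups of 4 crypt libraries checked (each of the 10 DCAF genes and Cul4b in both genotypes), 1 held a library far from the others, about what chance gives at 1 in 20 groups. Dcaf10 stood at 26.4 CPM in WT crypt replicate 1, while the other WT crypt libraries lay between 30.0 and 30.7 CPM. Without that library the edgeR log2 fold change of Dcaf10 in the crypts was 0.27 (adjusted p = 0.167).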

How the results depend on the processing

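No DCAF gene was called in the crypts under any alternative run, and in the KOIEC organoids the count ran from 0 to 1 with a library left out (Dcaf17, without the first KO library). In the KOCAG organoids the count of 3 ran from 1 to 5 with a library left out; in such fits the lone library of a group is assumed to vary like the others. It was 0 with all 16 libraries in one fit, where Dcaf17, Dcaf8 and Dcaf13 had edgeR adjusted p-values of 0.0591, 0.0839 and 0.188, 2 with DESeq2, and 1 with the 2-fold threshold; the causes were not tested. The difference between the organoid models gave 0 to 1 genes with a library left out, and the other model differences gave 0 throughout. Over all genes the calls in the crypts (934) ranged from 2 to 2468 with a library left out, and were 2490 with DESeq2, 1479 without a filter, 1659 with all libraries in one fit, 2 with the mitochondrial RNA class and 1 with the enterocyte markers as covariate. In the KOIEC organoids (1 call) they were 223 without a filter, 27 with DESeq2, 18 with all libraries in one fit and 0 to 2322 with a library left out, and in the KOCAG organoids (4278) 2761 with DESeq2, 477 with all libraries in one fit and 2789 to 5177 with a library left out.

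Signs turned only for values that were not called. In the crypts Dcaf5 read -0.026 with library size alone, -0.019 with the mitochondrial RNA class and -0.17 with the enterocyte markers as covariate. Dcaf6 read -0.071 with library size alone, -0.0033 without a filter and -0.23 with the enterocyte markers, and Dcaf17 read 0.15 with the RNA class and 0.20 with the enterocyte markers. Dcaf8 in the KOIEC organoids read -0.033 with library size alone. With a library left out, the ranges that crossed 0 were -0.15 to 0.11 for Dcaf6 and -0.13 to 0.0055 for Dcaf15 in the crypts, and -0.043 to 0.15 for Dcaf7 in the KOCAG organoids. In the KOIEC organoids they were -0.86 to 0.075 for Ddb2, -0.21 to 0.55 for Dcaf5, -0.17 to 0.47 for Dcaf6, -0.023 to 0.056 for Dcaf8, -0.17 to 0.042 for Dcaf13, -0.021 to 0.19 for Dcaf15 and -0.36 to 0.67 for Dcaf17. For the KOIEC organoid effect minus the crypt effect they were -0.0063 to 0.13 for Dcaf10 and -0.25 to 0.81 for Dcaf17. Of the called genes of the pathway lists and the overlapping neighbors, examined under the same alternatives after the data were seen, the 5 in the crypts had none called with the RNA class, with the enterocyte markers or under the replicate block (adjusted p from 0.0891 to 0.0943), nor without WT replicate 1, 2 or 3 or KOIEC replicate 2 or 3. Of the 21 in the KOCAG organoids, 4 were called with all 16 libraries in one fit, 12 with DESeq2 and 11 to 20 with a library left out. No sign turned among these genes.

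In the crypts, same-numbered WT and KO libraries deviated together for replicates 2 and 4 (correlations of 0.19 and 0.43). They did not for replicates 1 and 3 (-0.04 and -0.40). The organoids have only 2 numbers each (0.34 and 0.07). These values cannot settle whether the samples were pairs, and the labels give only a shared number. Under the replicate block the DCAF counts stayed at 0, 0 and 3, Dcaf6 in the crypts read -0.010, and calls over all genes were 4, 1 and 4932.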

Other observations

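The 10 DCAF genes did not move as a block between libraries. Over the deviations of the 16 libraries from their group means, the 45 pairs of DCAF genes had Pearson correlations from -0.63 (Dcaf6 and Dcaf13) to 0.73 (Dcaf7 and Dcaf10), with a median of 0.05. The libraries and their depth are shared by all pairs, the deviations within the organoid groups of 2 libraries mirror each other, and the values are a description.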
